A study of Homo sapiens with 15 samples.

Results

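The AP-1 and immediate early transcription factors described here are 10 genes, FOS, FOSB, FOSL1, FOSL2, JUN, JUNB, JUND, ATF3, EGR1 and EGR2, chosen by name as the rows of a count table whose Ensembl identifiers map to those symbols. They are 10 of 57736 genes in the table, and all 10 passed the filter on low counts that left 13516 genes for testing. RNA was measured in IMR90, a fibroblast line from human fetal lung, in 5 groups with 3 libraries each. Cells of the R298P add-back group expressed RAS from a retrovirus, received an siRNA against METTL14 and a lentivirus encoding METTL14 with the R298P substitution. Cells of the WT add-back group had the same retrovirus and siRNA with a lentivirus encoding wildtype METTL14. Cells of the knockdown group had RAS, the METTL14 siRNA and the empty lentiviral vector. The siControl RAS group had RAS and a non-targeting siRNA, and the control group had the empty retrovirus and the non-targeting siRNA. Sample titles call all RAS libraries senescent and the others control. In comparisons with control cells, RAS and the senescent state therefore cannot be told apart. Transfection with siRNA began on day 4 of retroviral expression and RNA was taken 48 hours after the second siRNA and the lentivirus. The genotype labels write knockout and knock-in, but the protocols give siRNA and lentivirus, which is followed here. They state neither the RAS isoform nor whether siControl RAS and control cells carried a lentiviral vector, so in comparisons of siRNA groups the METTL14 siRNA and a lentivirus cannot be told apart.

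AP-1 is a dimer of basic leucine zipper proteins, usually a FOS family member (FOS, FOSB, FOSL1 or FOSL2) with a JUN family member (JUN, JUNB or JUND), that binds the short DNA element TGAGTCA. ATF3 is a stress-induced protein of the same class, and EGR1 and EGR2 are zinc finger factors that bind GC-rich elements. Growth factors that signal through RAS, RAF, MEK and ERK switch many of these genes on within minutes without new protein synthesis, partly through serum response factor, and their mRNAs usually decay fast. In senescent cells AP-1 is known as a factor bound at many enhancers. METTL14 pairs with METTL3 in the enzyme complex that methylates adenosine in mRNA, and R298P is known to lower that complex's activity.

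The start regions of the members differ in the elements they hold. RefSeq start regions (build GRCh38.p14, 250 bases before to 50 after each start) were found for 9 of the 10 members, in 12 windows, and FOSL1 is named only. Those of EGR1, FOS and JUNB are shown because, at an adjusted p under 0.05, these genes fell most from siControl RAS to knockdown cells. That of JUN is shown because JUN was lower in siControl RAS than in control cells. Capitals mark the 2 CArG boxes (serum response elements) of EGR1, the TATAAA of FOS and JUNB, and the AP-1-like element TGACATCA of JUN, which ATF2 and JUN dimers are known to bind.
EGR1: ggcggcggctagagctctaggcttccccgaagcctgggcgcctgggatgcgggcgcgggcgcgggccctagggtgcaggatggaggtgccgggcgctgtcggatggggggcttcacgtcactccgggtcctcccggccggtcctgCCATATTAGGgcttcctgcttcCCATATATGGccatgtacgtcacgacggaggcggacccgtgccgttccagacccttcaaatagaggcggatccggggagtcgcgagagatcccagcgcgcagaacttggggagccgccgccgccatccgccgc
FOS: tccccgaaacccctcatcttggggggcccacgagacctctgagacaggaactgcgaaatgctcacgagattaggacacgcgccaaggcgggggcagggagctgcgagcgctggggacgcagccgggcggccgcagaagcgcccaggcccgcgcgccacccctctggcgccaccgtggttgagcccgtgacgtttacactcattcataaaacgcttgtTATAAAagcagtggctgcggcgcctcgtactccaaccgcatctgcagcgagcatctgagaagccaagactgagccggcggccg
JUNB: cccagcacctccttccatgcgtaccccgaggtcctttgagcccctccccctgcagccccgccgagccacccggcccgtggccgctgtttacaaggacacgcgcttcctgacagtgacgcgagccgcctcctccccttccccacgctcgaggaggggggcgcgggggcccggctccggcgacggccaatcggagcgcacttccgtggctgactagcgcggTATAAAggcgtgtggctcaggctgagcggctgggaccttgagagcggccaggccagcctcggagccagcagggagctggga
JUN: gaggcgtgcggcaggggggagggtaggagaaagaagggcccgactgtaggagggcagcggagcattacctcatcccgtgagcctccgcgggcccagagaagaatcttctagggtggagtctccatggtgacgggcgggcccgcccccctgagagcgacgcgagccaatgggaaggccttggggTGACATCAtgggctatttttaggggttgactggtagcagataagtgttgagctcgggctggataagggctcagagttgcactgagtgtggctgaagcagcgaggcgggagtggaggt
These windows are chr5:138465229-138465528 on the plus strand for EGR1, chr14:75278578-75278877 on the plus strand for FOS, chr19:12791236-12791535 on the plus strand for JUNB and chr1:58783998-58784297 on the minus strand for JUN.

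Positions are counted from the start site as base 1, and both strands were searched. The CArG boxes of EGR1, CCATATTAGG and CCATATATGG, lay at -105 to -96 and -83 to -74. EGR2 held CCATATATGG at -71 to -62 of 1 of its 3 windows, and a CArG box was present in 1.29% of all 35116 windows of the table. The cAMP response element TGACGTCA lay at -200 to -193 of JUND (1.85% of all windows), and TGACATCA at -67 to -60 of JUN and at -123 to -116 of 1 of 2 ATF3 windows (2.61%). The AP-1 element TGAGTCA, read on the other strand as TGACTCA, lay at 5 to 11 of FOSL2 (4.95%). TATAAA lay at -33 to -28 of FOS, -30 to -25 of FOSB, -31 to -26 of JUNB and -230 to -225 of the other ATF3 window (11.5%). The EGR elements GCGGGGGCG (5.07%) and GCGTGGGCG (0.795%) matched no member window. No 2 of the motifs searched overlapped in a member window, and a match describes letters, not binding. Bases outside the windows were not searched. A window without a CArG box, such as that of FOS, therefore does not show that the gene lacks one.

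Total counts were 4917661 to 7763084 per library, so 1 count stood for 0.129 to 0.203 CPM, the count scaled to library size. Levels are CPM after TMM scaling, means are given ± SD with n = 3 libraries, and fold changes are log2 values with their standard error (SE) unless named as a fold. The test was edgeR's quasi-likelihood F test, two-sided, and a gene was called where p adjusted over all 13516 genes was under 0.05. Nothing in the labels ties the 3 replicates to separate cultures, so p-values measure a spread that can be technical. METTL14 (ENSG00000145388) checked the labels: it had 892, 907 and 1038 CPM in R298P, 509, 564 and 564 CPM in WT, 9.35, 4.94 and 3.94 CPM in knockdown, 26.2, 19.3 and 20.5 CPM in siControl RAS and 19.1, 21.3 and 23.3 CPM in control libraries. All 11 fibroblast markers were expressed, with summed levels of 24090 to 25050 CPM in R298P, 24320 to 25580 CPM in WT, 21820 to 22200 CPM in knockdown, 27030 to 28640 CPM in siControl RAS and 12320 to 12530 CPM in control libraries. Of 7 epithelial markers 4 were tested and CDH1, KRT5 and KRT14 were at 0 in all 15 libraries, with sums of 62.0 to 69.7 CPM in R298P, 70.7 to 80.8 CPM in WT, 78.7 to 89.0 CPM in knockdown, 34.9 to 52.7 CPM in siControl RAS and 119 to 128 CPM in control libraries. Of 5 endothelial markers 1 was tested, CDH5 and ERG were at 0 and sums were 13.6 to 39.6 CPM over all libraries. Of 5 leukocyte markers none was tested, CD3E and LYZ were at 0 and the highest sum was 2.63 CPM. The part of these marker levels in the results was not tested.

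**Figure D1:**
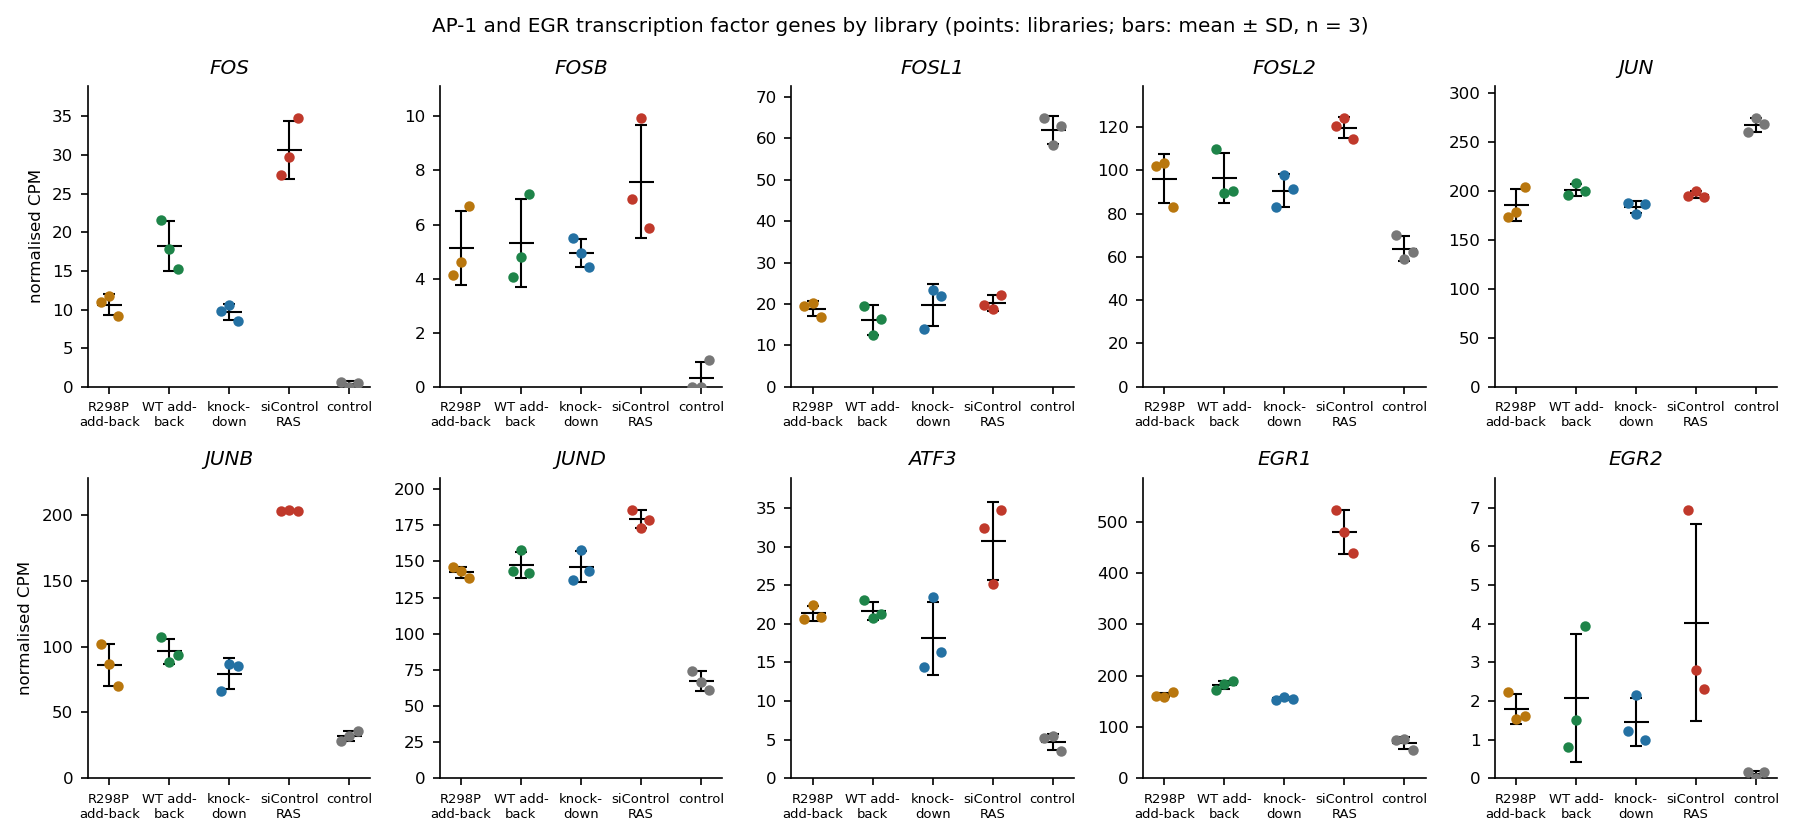
Normalised CPM (vertical axis, from 0, a scale per gene) of each of the 10 genes in the R298P add-back, WT add-back, knockdown, siControl RAS and control groups. Points are libraries and bars are mean ± SD (n = 3); 8 genes are higher in every RAS library than in every control library, while FOSL1 and JUN are lower.

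All 10 genes differed between siControl RAS and control cells. In siControl RAS against control cells 8 were higher (FOS, FOSB, FOSL2, JUNB, JUND, ATF3, EGR1 and EGR2) and 2 were lower (FOSL1 and JUN), and for none of the 10 did the libraries of both groups overlap. Of all genes tested 45.9% were called in this comparison and 54.2% had libraries that did not overlap, with a median log2 change of -0.0037, against a median of 2.69 for the 10 genes. In these bulk libraries, fewer cells expressing a gene and less RNA of it per cell cannot be told apart.

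Among FOS proteins, FOS and FOSB (which carry strong transactivation domains) stood near the detection limit in control cells, and FOSL1 and FOSL2 (the FOS-related antigens, which lack them) made up nearly the whole. FOS (ENSG00000170345), a classic immediate early gene, had 27.4, 29.8 and 34.8 CPM in siControl RAS libraries, against 0.625, 0 and 0.499 CPM in control libraries, which are 4, 0 and 3 counts. Its log2 change of 6.26 (SE 0.40, adjusted p = 2.38e-15) is a 76.7-fold difference that rests on those 7 control counts. FOSB (ENSG00000125740) had 6.95, 9.93 and 5.88 CPM in siControl RAS libraries, against 0, 0 and 0.998 CPM in control libraries. Only control replicate 3, with 6 counts, held any FOSB tag. The change was 4.45 (SE 0.66, adjusted p = 8.71e-07), and 8.48 without that library, a fitted value that then depends on the prior count because the other control libraries were at 0. ERCC1, a DNA repair gene that overlaps FOSB on the opposite strand, changed by 0.54 (adjusted p = 0.00231) in the same comparison. Whether counting used strand is not given, so tags of these neighbours may not be separated.

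FOSL2 (ENSG00000075426), the most abundant FOS family mRNA in the RAS groups, had 120, 124 and 114 CPM in siControl RAS libraries, against 70.0, 59.0 and 62.2 CPM in control libraries. It rose 1.88-fold (0.91, SE 0.11, adjusted p = 1.95e-08). FLJ31356 on the opposite strand and AC104695.3 on the same strand overlap FOSL2, with 23 and 67 counts over all 15 libraries. FOSL1 (ENSG00000175592), known as an ERK-stabilised protein of proliferating and invasive cells, had 19.8, 18.7 and 22.3 CPM in siControl RAS libraries, against 64.9, 58.3 and 63.1 CPM in control libraries. It fell 3.06-fold (-1.61, SE 0.19, adjusted p = 7.14e-09), opposite to the other 3 family members.

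All 3 JUN genes were well expressed, and they split in direction. JUNB (ENSG00000171223), often a brake on JUN activity and on division, had 203, 204 and 203 CPM in siControl RAS libraries, against 28.4, 31.8 and 35.8 CPM in control libraries, a 6.35-fold rise (2.67, SE 0.13, adjusted p = 2.83e-18). JUND (ENSG00000130522), a JUN protein present in resting cells, had 186, 173 and 179 CPM in siControl RAS libraries, against 74.4, 66.9 and 60.7 CPM in control libraries, a 2.66-fold rise (1.41, SE 0.09, adjusted p = 5.74e-15). JUN (ENSG00000177606), which favours entry into the cell cycle, had 196, 201 and 194 CPM in siControl RAS libraries, against 261, 275 and 269 CPM in control libraries. It fell 1.36-fold (-0.45, SE 0.08, adjusted p = 7.46e-06), the smallest change of the 10 genes. HOOK2, a microtubule linker gene on the strand opposite to JUNB, was not called (0.12, adjusted p = 0.793).

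ATF3 (ENSG00000162772) had 32.4, 25.1 and 34.8 CPM in siControl RAS libraries, against 5.16, 5.44 and 3.49 CPM in control libraries, a 6.53-fold rise (2.71, SE 0.24, adjusted p = 1.27e-11). EGR1 (ENSG00000120738), an early ERK target that in turn activates growth factor genes, had 523, 479 and 438 CPM in siControl RAS libraries, against 74.1, 76.9 and 54.6 CPM in control libraries. It rose 7.01-fold (2.81, SE 0.10, adjusted p = 6.83e-23) to the highest level of the 10 genes. EGR2 (ENSG00000122877), best known for nerve myelination and lymphocyte tolerance, had 6.95, 2.81 and 2.32 CPM in siControl RAS libraries, against 0.156, 0 and 0.166 CPM in control libraries. Those are 79 counts against 2, a 39.9-fold ratio whose 95% interval, for counting error only, ran from 10.7 to 335. Replicate 1 of siControl RAS stood far above the other 2 libraries for EGR2, and without it the fitted change was 4.32 (adjusted p = 0.00248) instead of 4.98.

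The make-up of each family changed with these levels. Libraries of 3′ tags give about 1 tag per transcript, so shares of the counts of a family compare its genes without a length correction, although genes can differ in how well their 3′ ends are captured. FOSL1 made up 11.4% ± 1.15 of FOS family counts in siControl RAS cells, against 49.1% ± 1.07 in control cells. FOS made up 17.2% ± 2.10 in siControl RAS cells, against 0.285% ± 0.249 in control cells, and FOSL2 made up 67.2% ± 2.35 in siControl RAS cells against 50.3% ± 1.30 in control cells. The whole FOS family summed to 178 ± 4.04 CPM in siControl RAS cells, against 127 ± 9.11 CPM in control cells. JUN made up 33.96% ± 0.667 of JUN family counts in siControl RAS cells, against 72.97% ± 1.10 in control cells. JUNB made up 35.1% ± 0.302 in siControl RAS cells, against 8.71% ± 0.989 in control cells, and JUND made up 30.9% ± 0.911 in siControl RAS cells against 18.3% ± 1.97 in control cells. In control cells JUN was thus the dominant JUN gene in each library, and in siControl RAS cells the 3 genes were near parity. The shares were described without a test.

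**Figure D2:**
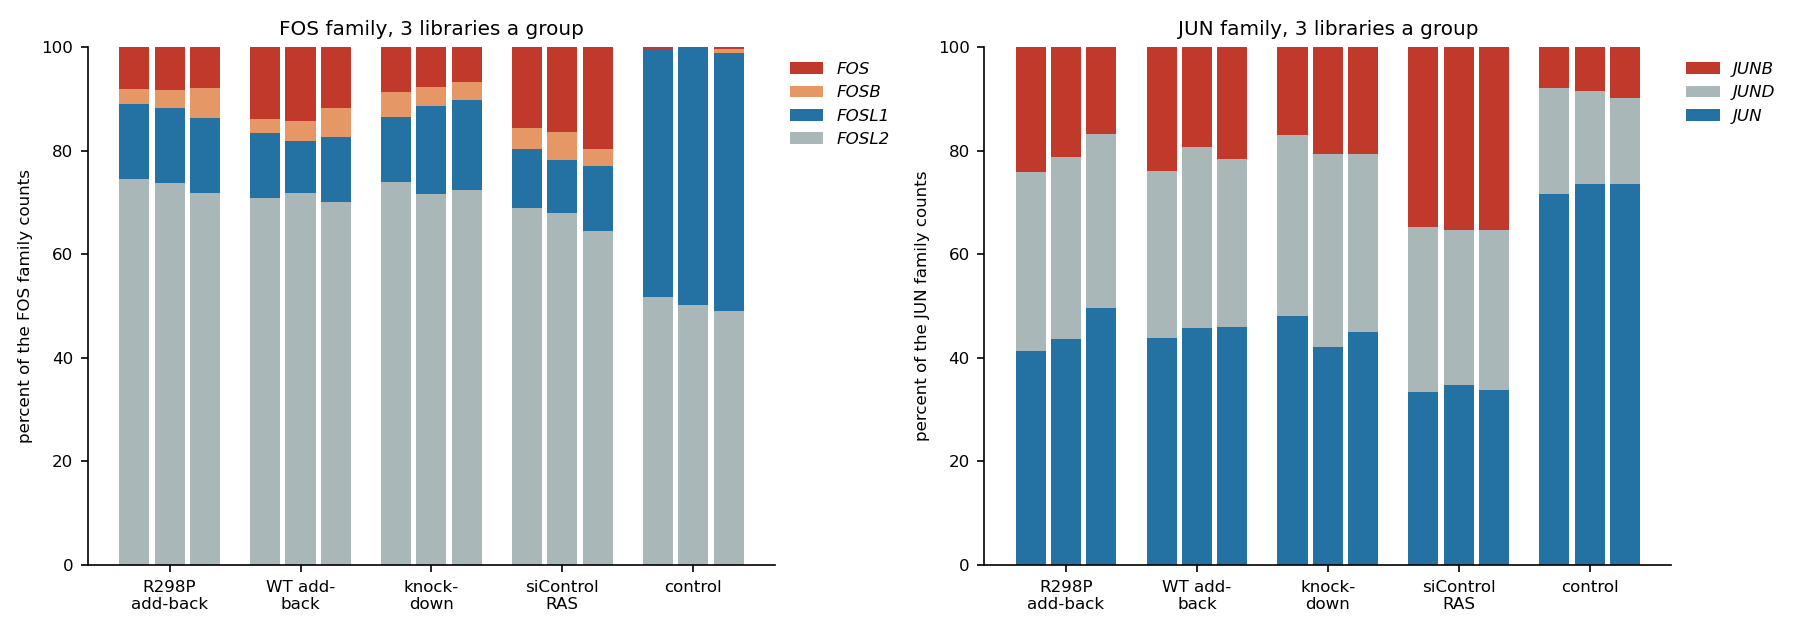
Percent of the summed normalised counts of the FOS family (left) and the JUN family (right) held by each gene, 1 bar per library, for the R298P add-back, WT add-back, knockdown, siControl RAS and control groups. FOSL1 and JUN hold large shares in control libraries, and FOS and JUNB hold their largest shares in siControl RAS libraries.

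Knockdown cells had 6 of the 10 genes called lower than in siControl RAS cells and none called higher. Compared with siControl RAS cells, FOS, JUNB and EGR1 fell 2.55-fold to 3.17-fold, and FOSL2, JUND and ATF3 fell 1.23-fold to 1.69-fold. Called genes made up 15.5% of all genes tested here, and the median log2 change was -0.0028 over all genes and -0.69 over the 10. METTL14 itself fell 3.77-fold (adjusted p = 5.49e-06).

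EGR1 had 153, 159 and 154 CPM in knockdown libraries, against 480 ± 42.5 CPM in siControl RAS cells, a change of -1.63 (SE 0.09, adjusted p = 8.99e-16). FOS had 9.75, 10.7 and 8.54 CPM in knockdown libraries, against 30.6 ± 3.76 CPM in siControl RAS cells (-1.66, SE 0.26, adjusted p = 1.08e-05). JUNB had 66.0, 86.7 and 85.5 CPM in knockdown libraries, against 203 ± 0.604 CPM in siControl RAS cells (-1.35, SE 0.12, adjusted p = 1.60e-10). For these 3 genes every knockdown library was below every siControl RAS library and above every control library. HOOK2, opposite JUNB, was not called in this comparison (0.39, adjusted p = 0.489), and neither was ERCC1, opposite FOSB (-0.04, adjusted p = 0.921).

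The other 3 falls were smaller. FOSL2 had 82.9, 97.7 and 91.3 CPM in knockdown libraries, against 120 ± 4.84 CPM in siControl RAS cells (-0.40, SE 0.11, adjusted p = 0.00926). ATF3 had 14.4, 23.5 and 16.4 CPM in knockdown libraries, against 30.8 ± 5.04 CPM in siControl RAS cells (-0.76, SE 0.21, adjusted p = 0.0102). JUND had 137, 158 and 144 CPM in knockdown libraries, against 179 ± 6.296 CPM in siControl RAS cells (-0.29, SE 0.09, adjusted p = 0.0199). For these 3 genes too, every knockdown library was below every siControl RAS library. Their calls were lost when some single libraries were left out, while the changes stayed near the full values, at -0.34 for FOSL2, -0.62 to -0.68 for ATF3 and -0.25 to -0.29 for JUND. Without knockdown replicate 1 the adjusted p was 0.0543 for FOSL2, 0.0686 for ATF3 and 0.0952 for JUND. Without knockdown replicate 3 it was 0.0590 for ATF3 and 0.0801 for JUND, without siControl RAS replicate 3 it was 0.0611 and 0.0511, and without siControl RAS replicate 1 it was 0.0870 for JUND.

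The remaining 4 genes were not called. JUN had 188, 177 and 187 CPM in knockdown libraries, against 197 ± 3.48 CPM in siControl RAS cells (-0.10, 95% interval -0.25 to 0.06, adjusted p = 0.473). FOSL1 had 14.02, 23.3 and 21.8 CPM in knockdown libraries, against 20.3 ± 1.83 CPM in siControl RAS cells (-0.03, interval -0.43 to 0.37, adjusted p = 0.953). The groups overlapped for FOSL1 and for none of the other 9 members, against 30.0% of all genes tested whose libraries did not overlap. The intervals of JUN and FOSL1 did not reach the size of the change between siControl RAS and control cells. FOSB had 5.49, 4.94 and 4.43 CPM in knockdown libraries, against 7.59 ± 2.10 CPM in siControl RAS cells (-0.61, interval -1.61 to 0.38, adjusted p = 0.472). EGR2 had 1.22, 2.16 and 0.985 CPM in knockdown libraries, against 4.03 ± 2.54 CPM in siControl RAS cells (-1.46, interval -2.96 to 0.05, adjusted p = 0.206), and the change was -0.80 without siControl RAS replicate 1. At these low counts the intervals of FOSB and EGR2 were wide, and that of FOSB held both a rise and a fall near that of FOS.

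Knockdown cells still differed from control cells in all 10 genes, in the same directions as siControl RAS cells did, at a background of 36.0% of all genes called. EGR1 was 2.27-fold, JUNB 2.49-fold, JUND 2.17-fold, ATF3 3.86-fold and FOSL2 1.42-fold higher in knockdown than in control cells (adjusted p from 0.000409 down to 2.49e-12). FOS was 24.2-fold higher (4.60, adjusted p = 6.50e-11), and FOSB was higher by 3.84 (adjusted p = 1.91e-05), or by 7.87 without control replicate 3, the one with FOSB counts. EGR2 had 26 counts against 2 in control libraries, a 13.7-fold ratio (3.44 to 119 by counting error). The EGR2 difference was called by edgeR (adjusted p = 0.00765) and not by limma-voom (adjusted p = 0.0708). FOSL1 was 3.13-fold lower in knockdown than in control cells (adjusted p = 8.12e-09) and JUN 1.46-fold lower (adjusted p = 4.07e-07). This comparison shares its knockdown libraries with the one against siControl RAS and its control libraries with the RAS comparison.

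**Figure D3:**
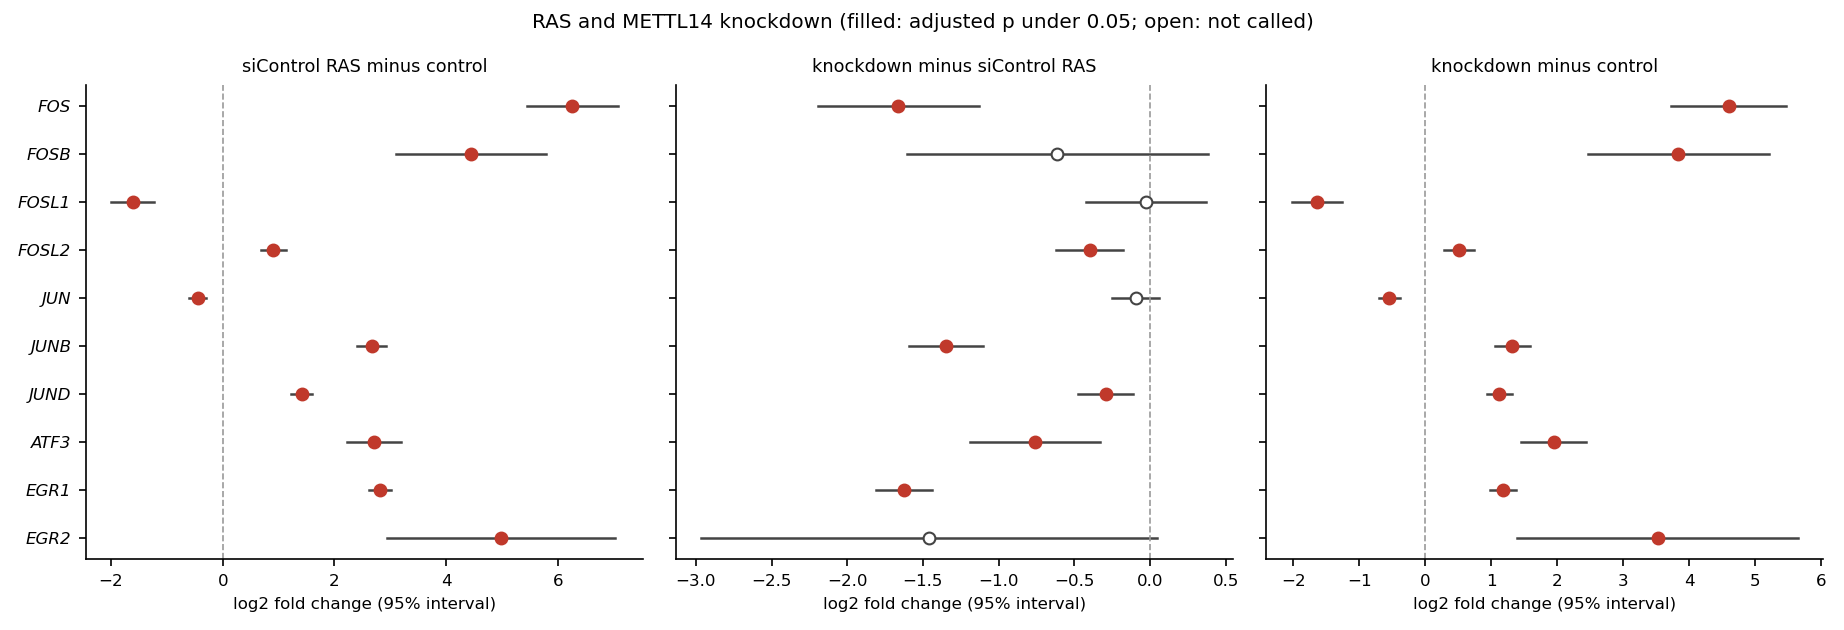
Log2 fold change with 95% interval (horizontal axis, a scale per panel) of the 10 genes for siControl RAS minus control, knockdown minus siControl RAS and knockdown minus control. Filled symbols mark genes called at an adjusted p under 0.05: all 10 in the outer panels, and FOS, FOSL2, JUNB, JUND, ATF3 and EGR1 in the middle one.

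In the family shares of knockdown cells, FOS made up 7.76% ± 0.963 of FOS family counts, against 17.2% ± 2.10 in siControl RAS cells. FOSL1 made up 15.6% ± 2.71 in knockdown cells against 11.4% ± 1.15 in siControl RAS cells, far from the 49.1% ± 1.07 of control cells. JUNB made up 19.3% ± 2.11 of JUN family counts in knockdown cells against 35.1% ± 0.302 in siControl RAS cells, and JUN made up 45.0% ± 3.02 in knockdown cells against 33.96% ± 0.667 in siControl RAS cells. The summed JUN family stood at 410 ± 16.5 CPM in knockdown cells, 579 ± 4.71 CPM in siControl RAS cells and 368 ± 5.24 CPM in control cells.

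The add-back groups ask whether METTL14 given back returned these levels and whether the R298P form did so too. METTL14 counts reached 160-fold the knockdown level with R298P and 92.6-fold with WT, counting lentiviral and endogenous tags together, and R298P exceeded WT by 0.79 (adjusted p = 0.0322). No member was called in R298P against knockdown (1.09% of all genes called), in WT against knockdown (0.621%) or in R298P against WT (0.0222%). At an unadjusted p under 0.05 there were 0 members for R298P against knockdown, 3 for WT against knockdown (FOS, JUNB and EGR1) and 1 for R298P against WT (FOS). DESeq2 called 0, 1 and 0, and limma-voom called none. The first 2 of these comparisons share the knockdown libraries. Between WT and knockdown 4 of the 10 members did not overlap, at 13.0% of all genes tested.

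FOS showed the largest difference between the forms. It had 11.0, 11.8 and 9.12 CPM in R298P, 21.6, 17.8 and 15.2 CPM in WT and 9.75, 10.7 and 8.54 CPM in knockdown libraries. Every WT library was above every R298P and every knockdown library, while R298P and knockdown overlapped. WT against knockdown gave 0.91 (SE 0.26, 95% interval 0.38 to 1.45, unadjusted p = 0.00152, adjusted p = 0.154 in edgeR), higher in 3 of 3 libraries. DESeq2 called this difference (adjusted p = 0.0368), and over all alternatives the adjusted p ran up to 0.559. R298P against knockdown gave 0.14 (interval -0.41 to 0.69, adjusted p = 0.948). R298P against WT gave -0.77 (SE 0.26, interval -1.31 to -0.24, unadjusted p = 0.00591, adjusted p = 0.830), lower in 3 of 3 libraries and not called by any alternative (adjusted p at least 0.440). The difference between R298P and WT in FOS therefore did not pass the correction over all genes.

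EGR1 had 161, 159 and 167 CPM in R298P, 173, 184 and 189 CPM in WT and 153, 159 and 154 CPM in knockdown libraries. WT lay above both other groups without overlap, by 0.23 over knockdown (interval 0.04 to 0.41, adjusted p = 0.494), and R298P was 0.17 below WT (interval -0.35 to 0.02, adjusted p = 1). JUNB had 102, 86.7 and 69.8 CPM in R298P, 107, 88.0 and 93.95 CPM in WT and 66.0, 86.7 and 85.5 CPM in knockdown libraries, 0.27 higher in WT than in knockdown (interval 0.02 to 0.52, adjusted p = 0.590). R298P libraries overlapped WT and knockdown for JUNB. Against a knockdown fall of 1.63 for EGR1 and 1.35 for JUNB, the upper ends of the WT intervals were 0.41 and 0.52.

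For the other members no difference among these 3 groups had an unadjusted p under 0.05. JUN had 174, 178 and 205 CPM in R298P, 196, 208 and 201 CPM in WT and 184 ± 5.89 CPM in knockdown cells, and WT and knockdown did not overlap (0.13, interval -0.02 to 0.29, adjusted p = 0.754). JUND had 146, 143 and 138 CPM in R298P, 144, 158 and 142 CPM in WT and 146 ± 10.7 CPM in knockdown cells. FOSL2 had 102, 103 and 83.1 CPM in R298P, 109.9, 89.4 and 90.6 CPM in WT and 90.6 ± 7.42 CPM in knockdown cells. For JUND and FOSL2 all 3 groups overlapped, with log2 differences between -0.05 and 0.09. FOSL1 had 19.6, 20.3 and 16.8 CPM in R298P, 19.6, 12.4 and 16.4 CPM in WT and 19.7 ± 4.99 CPM in knockdown cells. ATF3 had 20.7, 22.5 and 20.9 CPM in R298P, 23.0, 20.8 and 21.2 CPM in WT and 18.1 ± 4.75 CPM in knockdown cells, where it ranged most. WT minus knockdown was -0.31 for FOSL1 (interval -0.72 to 0.10) and 0.25 for ATF3 (interval -0.18 to 0.69), as large as the differences of EGR1 and JUNB but with wider intervals. FOSB and EGR2 stayed at a few CPM: FOSB had 4.14, 4.60 and 6.69 CPM in R298P and 4.04, 4.79 and 7.14 CPM in WT, and EGR2 had 2.23, 1.53 and 1.62 CPM in R298P and 0.808, 1.497 and 3.95 CPM in WT libraries, 0.50 higher than in knockdown (interval -1.04 to 2.04).

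**Figure D4:**
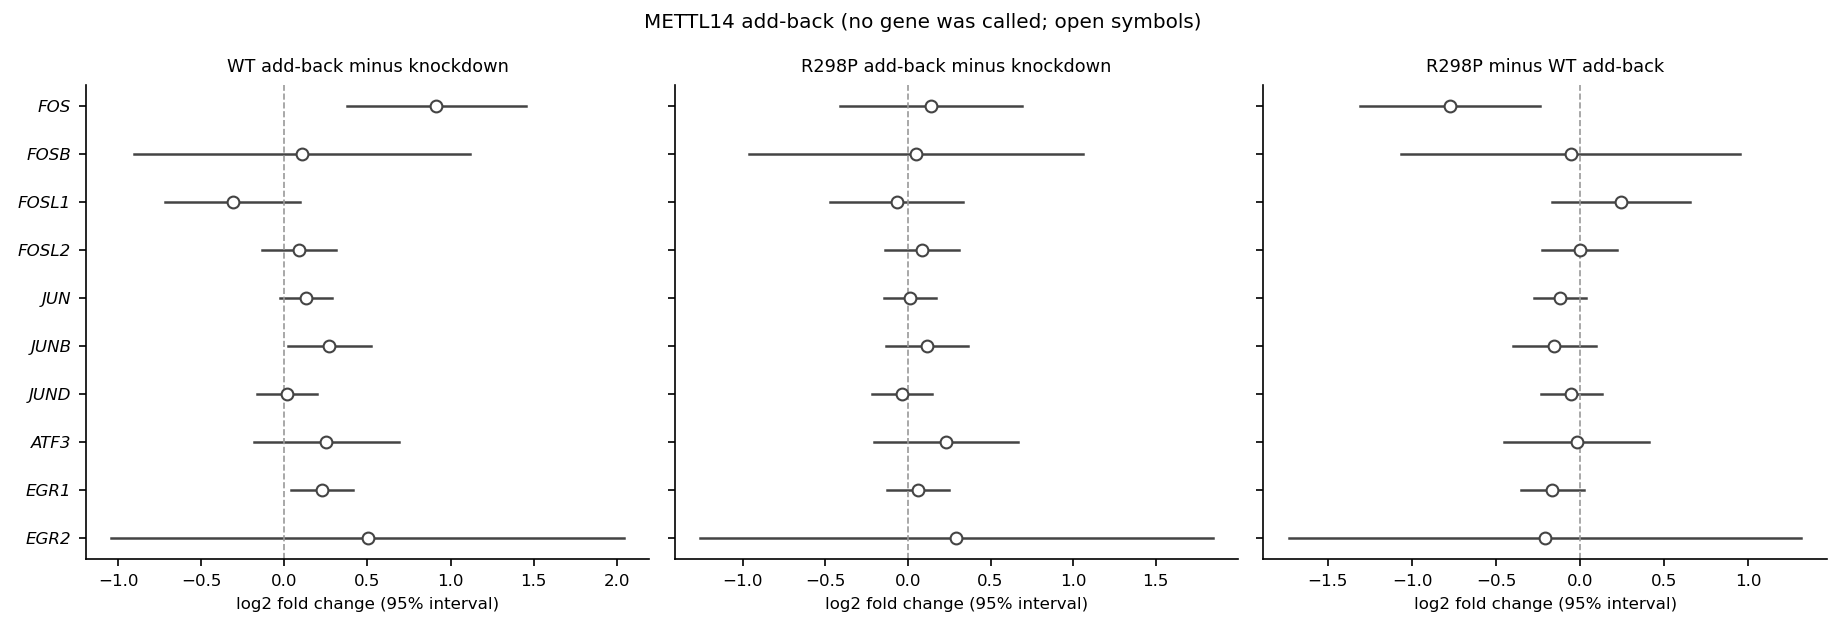
Log2 fold change with 95% interval (horizontal axis, a scale per panel) of the 10 genes for WT add-back minus knockdown, R298P add-back minus knockdown and R298P minus WT add-back. No gene was called; the FOS intervals exclude 0 for WT minus knockdown (0.38 to 1.45) and for R298P minus WT (-1.31 to -0.24).

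Set against siControl RAS cells, 4 of the 10 genes were called lower in each add-back group, at a background of 13.4% of all genes called for R298P and 13.0% for WT. EGR1 was 2.96-fold lower in R298P cells (adjusted p = 4.27e-15) and 2.64-fold lower in WT cells (adjusted p = 5.61e-14). JUNB was 2.35-fold lower in R298P cells (adjusted p = 1.45e-09) and 2.11-fold lower in WT cells (adjusted p = 2.34e-08). FOS was 2.87-fold lower in R298P cells (adjusted p = 5.42e-05) and 1.68-fold lower in WT cells (adjusted p = 0.0420). JUND was 1.26-fold lower in R298P cells (adjusted p = 0.0101) and 1.21-fold lower in WT cells (adjusted p = 0.0332). FOSL2 was 0.31 lower on the log2 scale in both groups and not called (adjusted p = 0.0513 in R298P and 0.0563 in WT), although DESeq2 (0.0403 and 0.0482) and limma-voom (0.0376 and 0.0308) called it in both groups, and ATF3 was 0.53 lower in R298P cells (adjusted p = 0.0955) and 0.51 lower in WT cells (adjusted p = 0.114). The WT calls of FOS and JUND were lost without any 1 of the siControl RAS libraries or without WT replicate 3, and the count of called genes was then 2. Their changes were then -0.64 to -0.83 for FOS, against -0.75 with all libraries, and -0.25 to -0.30 for JUND, against -0.28. FOS in WT was also not called without WT replicate 2 (adjusted p = 0.117) or R298P replicate 1 or 2 (0.0506 and 0.0508), nor JUND without WT replicate 1 (0.119). Without siControl RAS replicate 1, JUND was not called in R298P either (adjusted p = 0.0527). The comparisons share the siControl RAS libraries.

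The order of levels over the 5 groups differed between genes. FOS stood highest in siControl RAS, then WT, with R298P and knockdown overlapping and control lowest. EGR1 had the same order. JUNB, JUND, FOSL2 and ATF3 were highest in siControl RAS and lowest in control, and the 3 METTL14 siRNA groups between overlapped, except that every WT library exceeded every knockdown library for JUNB. JUN and FOSL1 were highest in control cells. By group means of log2 CPM over the 5 groups, each centred on its own mean, the tested gene closest to EGR1 was HLA-J (root mean square difference 0.109), followed by JUNB (0.119) and NDUFA4L2 (0.126). Closest to FOS were CYP26B1 (0.222), COL10A1 (0.226) and GAREM1 (0.258), and closest to FOSL1 were FANCI (0.061), KCNC4 (0.061) and CIT (0.087). These are descriptions over 5 group means.

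Related genes were described with 5 lists, whose counts stand against 45.9% of all genes called for siControl RAS against control and 15.5% for knockdown against siControl RAS. These shares hold both directions. For siControl RAS against control, 24.0% of all genes were called higher and 21.9% lower. For knockdown against siControl RAS, 7.47% were called higher and 8.06% lower. Among 14 tested bZIP partners (basic leucine zipper proteins that can pair with FOS, JUN or one another), 7 were higher and 0 lower in siControl RAS than in control cells (1 lower without siControl RAS replicate 2, and 10 of 14 at an unadjusted p under 0.05), with a median of 0.56. These 7 of 14 are near the 45.9% of all genes called in either direction, but all 7 were higher, against 24.0% of all genes. CREB5 had 30.6 CPM in siControl RAS against 2.95 CPM in control cells (3.37, adjusted p = 4.85e-09) and MAFF, a small MAF without an activation domain, had 161 CPM in siControl RAS against 67.0 CPM in control cells (1.26, adjusted p = 7.16e-13). In knockdown against siControl RAS cells 5 were lower and 0 higher (median -0.35, 15.5% of all genes called), with 7 of 14 at an unadjusted p under 0.05. They included CREB5 (11.9 CPM in knockdown against 30.6 CPM in siControl RAS cells, -1.36, adjusted p = 0.00265), the cAMP-responsive CREM (-0.61, adjusted p = 0.0186) and MAFG (-0.54, adjusted p = 0.00433).

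Of 24 tested other immediate early genes, 13 were higher and 4 lower in siControl RAS than in control cells (45.9% of all genes called), with a median of 0.88. IER3, an ERK-regulated survival gene, had 8870 CPM in siControl RAS against 458 CPM in control cells (4.28, adjusted p = 8.92e-24), and the orphan nuclear receptors NR4A2 (2.52, adjusted p = 1.34e-13) and NR4A1 (2.49, adjusted p = 3.81e-06) were higher. The Krüppel-like factors KLF2 (-1.97, adjusted p = 6.68e-06) and KLF6 (-1.13, adjusted p = 3.78e-14) and the gene IER5 (-0.96, adjusted p = 4.82e-09) were lower. In knockdown against siControl RAS cells 12 were lower and 1 higher (median -0.54, 15.5% of all genes called). NR4A2 had 13.0 CPM in knockdown against 166 CPM in siControl RAS cells (-3.65, adjusted p = 1.16e-15), 12.6-fold lower and below the 28.8 CPM of control cells, NR4A1 had 5.11 CPM in knockdown against 23.9 CPM in siControl RAS cells (-2.20, adjusted p = 8.76e-05) and GEM, a small GTPase, had 3.54 CPM in knockdown against 12.2 CPM in siControl RAS cells (-1.76, adjusted p = 0.00233). KLF6 was the one called higher (0.27, adjusted p = 0.0179), and the count of higher genes was 0 without knockdown replicate 1 or siControl RAS replicate 2 or 3, and 2 without siControl RAS replicate 1 or knockdown replicate 3.

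Of 25 tested upstream kinases and serum response factors, 3 were higher and 3 lower in siControl RAS than in control cells, with a median of 0.01, a smaller share than the 45.9% of all genes. The ERK-activated kinase gene RPS6KA3 (1.17, adjusted p = 2.49e-11) and BRAF (0.74, adjusted p = 0.00271) were among the higher genes, and HRAS (-0.52, adjusted p = 0.00360), the MEK gene MAP2K2 (-0.34, adjusted p = 0.0154) and SRF (-0.33, adjusted p = 0.0138) were lower. The RAS transgene was not separated from endogenous genes. In knockdown against siControl RAS cells 2 were higher and 2 lower, a share near the 15.5% of all genes. MAP2K2 (0.63, adjusted p = 0.000121) and SRF, the factor that binds CArG boxes (0.35, adjusted p = 0.0240), were higher, and BRAF (-0.61, adjusted p = 0.0353) was among the lower genes. The count of higher genes was 1 without knockdown replicate 1 or 3 or siControl RAS replicate 2 or 3, and that of lower genes was 1 without knockdown replicate 1 or siControl RAS replicate 1 or 3.

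Of 9 tested MAPK phosphatases and EGR corepressors, 4 were higher and 3 lower in siControl RAS than in control cells (45.9% of all genes called). The ERK phosphatase genes DUSP4 (43.6 CPM in siControl RAS against 9.88 CPM in control cells, 2.14, adjusted p = 7.23e-12) and DUSP6 (540 CPM in siControl RAS against 157 CPM in control cells, 1.78, adjusted p = 3.75e-14) and the EGR corepressor NAB1 (1.71, adjusted p = 2.29e-13) were higher, and DUSP10 (-0.91, adjusted p = 0.00106), DUSP1 (-0.59, adjusted p = 0.00135) and DUSP5 (-0.51, adjusted p = 0.00125) lower. In knockdown against siControl RAS cells 6 were lower and 0 higher (median -0.47, 15.5% of all genes called), with 7 of 9 at an unadjusted p under 0.05. They included DUSP16 (-1.16, adjusted p = 0.0191), DUSP4 (-0.92, adjusted p = 0.000151) and NAB2, itself an EGR1 target (-0.90, adjusted p = 0.000134).

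Of 24 tested AP-1 and EGR target genes, 17 were higher and 5 lower in siControl RAS than in control cells (median 2.62, 45.9% of all genes called), and 12 were lower and 1 higher in knockdown than in siControl RAS cells (median -0.64, 15.5% of all genes called). The stromelysin gene MMP10 had 1.02 CPM in knockdown against 17.7 CPM in siControl RAS cells (-4.13, adjusted p = 7.19e-07) and the EGF receptor ligand AREG had 40.8 CPM in knockdown against 652 CPM in siControl RAS cells (-3.99, adjusted p = 9.83e-13). CCND1, the cyclin of G1, was the one higher (0.20, adjusted p = 0.00510), and 3 were higher without knockdown replicate 1 and 2 without R298P replicate 3. Under RAS, HMOX1 (-1.04, adjusted p = 0.00271) and HBEGF (-0.80, adjusted p = 2.82e-05), both known AP-1 or EGR1 targets, were lower in siControl RAS than in control cells. The lists had been drawn up with earlier results of these data known, so their counts are descriptions.

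Few list genes were called in the add-back comparisons. CCN2, a matricellular growth factor, was higher in R298P (587 CPM, against 437 CPM in knockdown, 0.42, adjusted p = 0.0272) and in WT (593 CPM, against 437 CPM in knockdown, 0.44, adjusted p = 0.0307) than in knockdown cells. The cytokine gene IL11 was higher by 0.47 in R298P (adjusted p = 0.00294) and by 0.73 in WT cells (adjusted p = 2.95e-06). Its levels were 88.55 CPM in R298P, 106 CPM in WT and 63.8 CPM in knockdown cells. Both add-back levels lay below the 810.7 CPM of siControl RAS and the 115.7 CPM of control cells. R298P cells also had more AREG (80.8 CPM, against 40.8 CPM in knockdown, 0.98, adjusted p = 0.00154) and IL1B (258 CPM, against 158 CPM in knockdown, 0.71, adjusted p = 0.0237) than knockdown cells, and less DUSP10 (12.5 CPM, against 24.1 CPM in knockdown, -0.94, adjusted p = 0.0403). In WT cells AREG stood between these levels, at 63.8 CPM, and was not called against knockdown. The number of AP-1 and EGR targets higher in R298P, 4 in all, ran from 1 to 5 when single libraries were left out, and was lowered by leaving out knockdown replicate 2 or R298P replicate 1 or 3. The IL11 call was the only one among the targets for WT, where 1 to 3 were called when single libraries were left out. No gene of the list of other immediate early genes was called for R298P without knockdown replicate 3 or R298P replicate 1 or 2, nor for WT without control replicate 1 or 3, siControl RAS replicate 3, knockdown replicate 3 or WT replicate 1 or 2. DUSP10 was not called without control replicate 2, knockdown replicate 2 or 3, or R298P replicate 2 or 3. In R298P against WT no gene of any list was called by edgeR, DESeq2 or limma-voom, with 0 to 3 genes per list at an unadjusted p under 0.05.

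**Figure D5:**
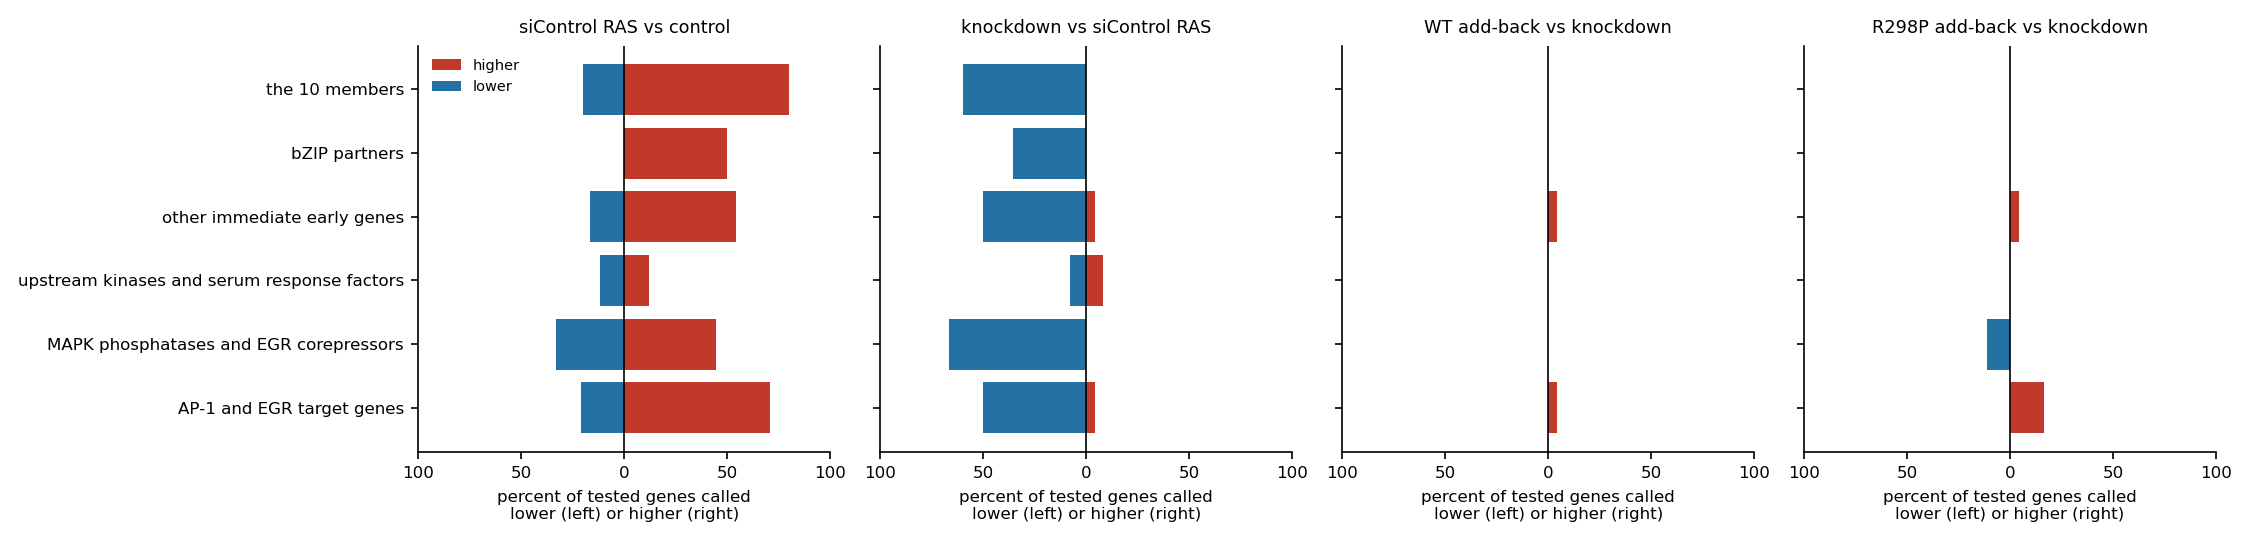
Percent of the tested genes of each list called higher (to the right of 0) or lower (to the left) for siControl RAS against control, knockdown against siControl RAS, WT add-back against knockdown and R298P add-back against knockdown. The 10 transcription factor genes, 24 other immediate early genes and 24 target genes are mostly higher in the first panel and mostly lower, or not called, in the second, and the last 2 panels hold few called genes.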

How the data were processed

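Per the labels' protocols, the 15 IMR90 libraries are Lexogen QuantSeq libraries, read from the 3′ end. The authors deposited 1 table of raw whole-number counts for each Ensembl gene. The submitters' processing notes list hg19, Bowtie2 and RSEM 1.2.12, with no role for any. RSEM gives estimates. The sources used here do not give any rounding by the authors, the annotation or the strand setting of counting. Reading from the 3′ end does not separate isoforms that share a 3′ end.

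Symbols were matched by Ensembl ID for 52301 IDs (90.6%), of which 342 took their name from GENCODE. The counts were fitted in edgeR 4.0.16 (R 4.3.3) with TMM scaling, filterByExpr and the quasi-likelihood F test (robust, two-sided), with 1 coefficient per group over all 15 libraries and 10 residual degrees of freedom. Benjamini-Hochberg adjustment ran over 13516 genes, which hold 99.8% of the counts. SEs and 95% intervals came from the F statistic of each contrast. The biological coefficient of variation was 16.7%, and the procedure was tested on simulated counts. Alternatives were RLE and upper-quartile factors, no filter, DESeq2 1.42.0, limma-voom (limma 3.58.1), a fit of the 2 groups alone, a replicate block and leaving out each library.

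No library copied another of its own group: within groups chi-square divided by its degrees of freedom was 3.52 to 8.47. Pairs across groups were not checked in this way. Deviations of the 30 pairs of same-numbered libraries correlated at -0.0541 to 0.0681 and 5 of 15 libraries correlated best with their own number, so they were treated as unpaired. Members, lists and the rule on which genes to name were chosen with earlier results of these data known. That rule took all 10 members, METTL14, up to 3 called genes per list, direction and comparison with the largest change and a group mean of at least 5 CPM (some are not reported here), genes overlapping a member, and the 3 genes nearest to FOS, EGR1 and FOSL1. PECAM1 matched no ID. Promoter sequences are RefSeq's, and no coordinates of the authors' build are given.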

Additional observations from a re-analysis of the deposited data

How the results depend on the processing

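All 10 genes were called for siControl RAS against control under every alternative, and for knockdown against control under all but limma-voom and the fit of the 2 groups alone (9 each, EGR2 not called or not tested). No member changed direction past the threshold. For knockdown against siControl RAS the count of 6 held under every alternative of scaling, filter, tool and block, and ranged from 3 to 6 when single libraries were left out, with 3 without knockdown replicate 1. For WT against knockdown it was 0, and 1 with DESeq2 (FOS). For WT against siControl RAS the count of 4 became 2 with upper-quartile factors, 3 with no filter, 5 with DESeq2, limma-voom, the 2 groups alone or the block, and 2 to 5 with single libraries left out. For R298P against siControl RAS it was 4, 5 with RLE, DESeq2, the 2 groups alone or the block, 6 with limma-voom (FOSL2 and ATF3 added), and 3 to 5 with single libraries left out. R298P against knockdown and against WT gave 0 throughout. A replicate block, like those tools, added FOSL2 to the genes called lower against siControl RAS, in R298P (-0.32, adjusted p = 0.0399) and in WT (-0.31, adjusted p = 0.0445) and changed no other member's call. Over the alternatives 169 of 176 counts of called members stayed within 1.5 times the main one. This total includes comparisons whose count stayed at 0 or at 10, and fits that left out a library of neither group compared. A change from 6 to 4 also counts as within that limit, so the total says little about single calls. All genes called for R298P against WT numbered 3 with edgeR, 12 with DESeq2 and 14 with no filter, and for R298P against knockdown 148 with edgeR and 225 with DESeq2. The causes were not tested. Depth limits FOSB and EGR2, where 1 count is 0.129 to 0.203 CPM.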
